A study of Mus musculus with 2 samples.

Results

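A total of 1275 binding sites of the thyroid hormone receptor TRα1 lay in introns near a gene start in brown adipocytes of hypothyroid mice treated with thyroid hormone (TH). A TR binding site (TRBS) is a peak of the deposited ChIP-seq list, and its summit is the position with the most ChIP fragments. A site was counted as gene-near intronic when its summit was over 1 kb and at most 30 kb from the nearest protein-coding transcription start site (TSS), inside the body of a protein-coding gene, and in no exon of a basic protein-coding transcript. These 1275 TRBS made up 25.3% of the 5035 autosomal TRBS (95% Wilson interval 24.1 to 26.5%), and the whole list held 5107. The rule used positions only, so sequence, fragment counts and density per Mb were not fixed by it. The 1 kb and 30 kb limits cut through a continuous range of distances. The TRBS nearest to the lower limit were 991 bp from the TSS of Lrrc75b on the outside (14 fragments) and 1001 bp from the TSS of Cebpb on the inside (25 fragments). At the upper limit they were 29996 bp from Arhgef28 on the inside (18 fragments) and 30024 bp from Prf1 on the outside (7 fragments).

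The study followed chromatin occupancy by TRα1 in brown adipose tissue of male C57BL/6J mice aged 8 to 12 weeks. All mice expressed a GS-tagged TRα1 in brown adipocytes only, ate food with propylthiouracil, a drug that blocks TH synthesis, for 2 weeks and then received TH over 24 h. The labels gave 1 ChIP library, precipitated with an antibody against TRα1, and 1 input library, which is chromatin of the same kind before precipitation. The study describes a floxed construct that allows TRα1 to be tagged in a single cell type, but the promoter that drove recombination here and the number of mice pooled were not given in the sources used here. The samples used here held no replicate, and the hypothyroid tissue without TH that the study also describes was not analysed here, so no effect of TH was measured. Every interval and p-value below treats TRBS as independent positions of 1 library and covers no spread between mice.

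TRα1 is a nuclear receptor for the thyroid hormone T3, and it binds DNA mostly as a heterodimer with the retinoid X receptor RXR. The classic element of this pair is the DR4, a direct repeat of the hexamer AGGTCA with a 4-bp spacer, of which RXR takes the upstream hexamer and TR the downstream one. Introns, and long first introns in particular, are a frequent place for enhancers, which can act on the gene that hosts them or on a neighbour. In brown fat, T3 acts together with adrenergic signals on heat production and on the synthesis and use of fat.

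A DR4 without a mismatch was present in 12 gene-near intronic TRBS. The 10 with the most ChIP fragments are shown to make visible what an intronic DR4 looked like here, in GRCm38 (mm10) sequence from RefSeq with 10 bases on either side. The capitals mark the hexamers, written 5′ to 3′ on the strand that holds the direct repeat.
Kif16b, chr2:142878404-142878439, minus strand: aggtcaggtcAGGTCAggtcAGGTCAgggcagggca
Supt6, chr11:78210871-78210906, plus strand: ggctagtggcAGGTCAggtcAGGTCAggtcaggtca
Pwwp2b, chr7:139257432-139257467, plus strand: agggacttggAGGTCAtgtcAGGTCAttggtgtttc
H13, chr2:152694547-152694582, minus strand: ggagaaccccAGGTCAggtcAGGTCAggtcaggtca
Tmod3, chr9:75553377-75553412, plus strand: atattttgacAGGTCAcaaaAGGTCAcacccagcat
Desi1, chr15:82015384-82015419, minus strand: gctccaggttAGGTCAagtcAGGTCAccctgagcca
Actr1a, chr19:46394475-46394510, plus strand: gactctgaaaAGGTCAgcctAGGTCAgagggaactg
Dnaja3, chr16:4702845-4702880, plus strand: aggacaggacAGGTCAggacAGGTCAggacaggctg
Glrx5, chr12:105039556-105039591, minus strand: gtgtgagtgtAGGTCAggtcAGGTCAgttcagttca
Csnk2a1, chr2:152275116-152275151, plus strand: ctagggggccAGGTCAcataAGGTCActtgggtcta

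In 4 of the 12 perfect elements (Kif16b, Supt6, H13 and Glrx5) another AGGTCA stood across the spacer, so that 3 hexamers overlapped in steps of 5 bases. In Kif16b, Supt6 and H13 the 5-base unit went on beyond the DR4. Fragment counts of the perfect elements had a wide range. The intron of Kif16b, which encodes an endosomal kinesin, had 87 fragments (95% Poisson interval 69.7 to 107). Supt6, a transcription elongation factor, had 74 (58.1 to 92.9), and Pwwp2b had 68 (52.8 to 86.2). The lowest values among those shown were 15 (8.40 to 24.7) in Glrx5, a mitochondrial protein of iron-sulphur cluster assembly, and 13 (6.92 to 22.2) in Csnk2a1, the catalytic subunit of casein kinase 2. The intervals of the upper and the lower end did not overlap, although the 12 hexamer bases were identical in all of them.

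Of the gene-near intronic sites with a fold of at least 5, the 8 with the most fragments held no perfect DR4. Their best DR4 with at most 2 mismatches is shown for 5 of these 8 and for Elmo2, whose element had 1 mismatch.
Ginm1, chr10:7774473-7774508, minus strand: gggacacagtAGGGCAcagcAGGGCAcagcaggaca
Rcl1, chr19:29112440-29112475, minus strand: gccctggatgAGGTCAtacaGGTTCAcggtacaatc
Cradd, chr10:95317938-95317973, plus strand: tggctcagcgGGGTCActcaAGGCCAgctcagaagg
Bcl6, chr16:23979584-23979619, plus strand: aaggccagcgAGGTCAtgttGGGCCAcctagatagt
Slco4a1, chr2:180469837-180469872, minus strand: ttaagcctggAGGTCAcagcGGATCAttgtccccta
Elmo2, chr2:165321788-165321823, plus strand: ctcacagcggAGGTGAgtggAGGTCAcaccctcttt

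For 3 of the 8, the 201 bases centred on the summit are shown, on the plus strand, with each AGGTCA or its reverse complement in capitals, as the site of Ginm1 was a tandem array, Slco4a1 held AGGTCA more than once, and Ip6k3 had no DR4 with at most 2 mismatches in its peak.
Ginm1, chr10:7774386-7774586, plus strand: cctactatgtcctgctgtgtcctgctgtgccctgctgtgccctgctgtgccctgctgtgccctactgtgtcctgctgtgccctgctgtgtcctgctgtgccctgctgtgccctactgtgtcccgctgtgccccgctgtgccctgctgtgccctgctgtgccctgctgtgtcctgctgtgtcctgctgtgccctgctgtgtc
Slco4a1, chr2:180469804-180470004, plus strand: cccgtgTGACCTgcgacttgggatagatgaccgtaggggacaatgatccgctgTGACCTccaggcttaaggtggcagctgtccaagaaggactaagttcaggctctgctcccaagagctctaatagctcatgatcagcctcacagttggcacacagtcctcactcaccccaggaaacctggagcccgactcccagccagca
Ip6k3, chr17:27161036-27161236, plus strand: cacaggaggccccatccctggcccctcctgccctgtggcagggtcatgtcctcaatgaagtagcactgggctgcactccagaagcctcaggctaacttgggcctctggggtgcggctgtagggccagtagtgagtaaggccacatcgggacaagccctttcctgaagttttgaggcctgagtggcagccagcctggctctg

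The site in intron 4 of Ginm1 (chr10:7774028-7774896) had 162 fragments (138 to 189), a fold of 92.8 over the input background, and lay 18338 bp from the TSS. The site in intron 1 of Rcl1, a protein of ribosomal RNA processing, had 157 fragments (133 to 184), and its DR4 was 395.5 bp from the summit. The next sites had 124 fragments in Ip6k3, an inositol hexakisphosphate kinase, and 122 in Klf10, a zinc-finger repressor. These 8 strongest sites of a fold of at least 5 covered 117 to 162 fragments, and the interval of each overlapped with those of the other 7. Cradd, a death-domain adaptor, had 121 (100 to 145). The transcriptional repressor Bcl6 had 120 (99.5 to 143). Slco4a1, a membrane transporter of organic anions that include thyroid hormones, had 118 (97.7 to 141), and Elmo2, an adaptor for Rac activation, had 117 (96.8 to 140). In 5 of these 8 genes (Rcl1, Ip6k3, Klf10, Bcl6 and Elmo2) the site was in intron 1, and in Ip6k3 and Klf10 no DR4 with at most 2 mismatches was in the peak.

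A further 2 sites, in Gm10717 and Gm10715 near the start of chromosome 9, had 708 and 728 fragments but a fold of only 2.07 and 2.54, over input backgrounds of 341 and 286. They were named after their values were seen. Most gene-near intronic TRBS were much weaker than the 8. The median was 16 fragments at the summit, the lower quartile 11 and the upper quartile 26, against a median input background of 0.672 on the ChIP scale and a median fold of 9.79. The fragment counts were recovered from the deposited fold and p-value, and for 3 of the 1275 (all near the start of chromosome 9) no count was recovered. In 221 of the 1275 the score was under 60, the limit below which the study discarded peaks. Their median width was 424 bp. Base composition and repeats set the sites apart from their surroundings: the mean GC content was 52.6% in the 201 bases around the summits and 48.2% in the flanks, and soft-masked repeats took up 9.81% of the former and 23.3% of the latter. The flanks were windows of the same width as the peak, 2 kb beyond each of its edges, that met no TRBS. Their GC content and repeats were taken in the 201 bases around the middle of the window.

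**Figure D1:**
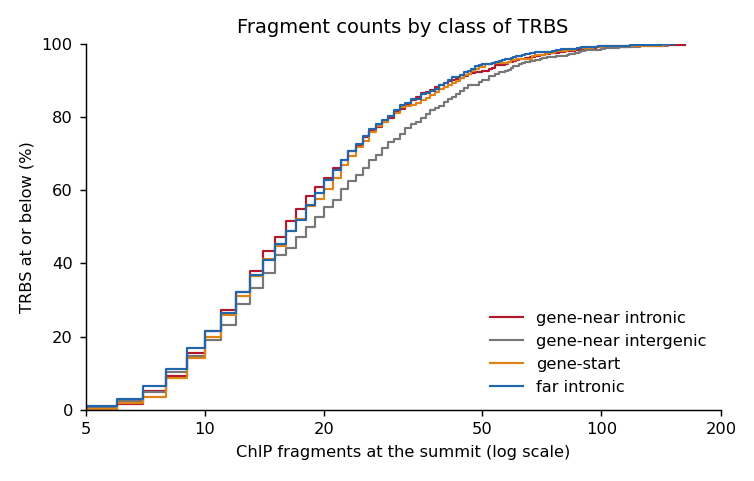
Cumulative share of TRBS (y axis, in %) against the ChIP fragment count at the summit (x axis, log scale) for the 4 classes of autosomal TRBS, 1 line per class. The line of the 845 gene-near intergenic TRBS crosses the others below about 10 fragments and lies to their right from there to 50 fragments, with a median of 19 fragments against 16 in the 1275 gene-near intronic TRBS and 17 in both the gene-start and the far intronic TRBS.

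Fewer of the gene-near intronic TRBS were strong than of the gene-near intergenic ones, which lay at the same distances from a TSS but in no protein-coding gene body. A site was called strong with at least 17 fragments, the median of all autosomal TRBS. This held for 615 of 1272 intronic sites (48.3%, 45.6 to 51.1%) and for 470 of 844 intergenic sites (55.7%, 52.3 to 59.0%). The difference of -7.34 percentage points (95% Newcombe interval -11.6 to -2.99) passed Fisher's exact test (two-sided, adjusted p = 0.00405 over 8 share differences). Within the intronic class, no difference in strength by the position in the gene passed the test. In first introns 49.2% were strong and in later introns 47.1%, a difference of 2.12 points (-3.50 to 7.73, adjusted p = 0.653 in Fisher's exact test). Where the nearest TSS was that of the host gene, 47.4% were strong, and where it was that of another gene, 52.2%, a difference of -4.81 points (-11.7 to 2.12, adjusted p = 0.357 in Fisher's exact test).

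First introns held more TRBS per base than later introns. For this comparison the sequence that the rule could have chosen was measured, that is every base without N that was gene-near and intronic by the same rule, and it came to 345.75 Mb with 3.69 TRBS per Mb (95% Poisson interval 3.49 to 3.90). First introns had 599 TRBS in 131.16 Mb, or 4.57 per Mb (4.21 to 4.95). Later introns had 612 in 198.99 Mb, or 3.08 per Mb (2.84 to 3.33). The rate ratio was 1.48 (exact conditional interval 1.32 to 1.66), with an adjusted p of 7.8e-11 over 19 rate comparisons in the exact two-sided test. First introns lie nearer to the TSS by construction, so the comparison was repeated within bins of distance. First introns had the higher density in each of them. The ratio was 1.42 (1.10 to 1.84, adjusted p = 0.0112, exact test) at 1 to 5 kb and 1.63 (1.26 to 2.10, adjusted p = 0.000349, exact test) at 5 to 10 kb. It was 1.29 (1.05 to 1.58, adjusted p = 0.0235, exact test) at 10 to 20 kb and 1.51 (1.16 to 1.96, adjusted p = 0.00464, exact test) at 20 to 30 kb. The sequence available was thus accounted for, but mappability of reads was not. With soft-masked repeats left out of both the sites and the sequence, the ratio was 1.51, and with only the strongest site of each host gene it was 1.47.

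**Figure D2:**
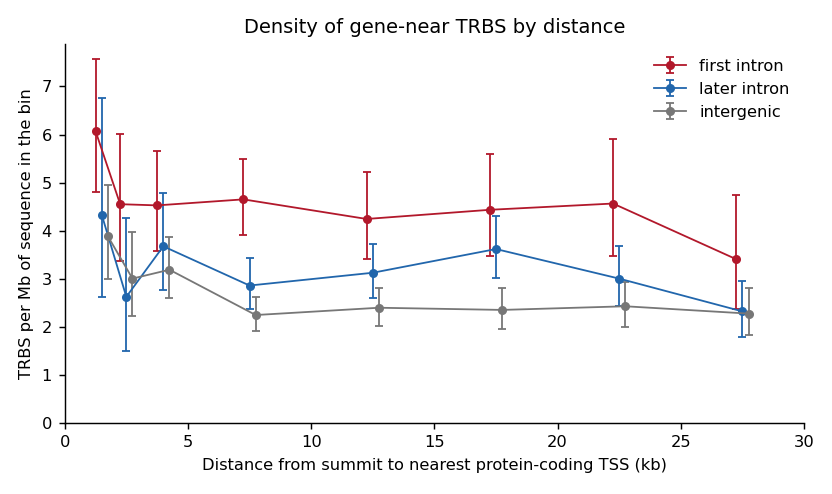
TRBS per Mb of available sequence (y axis) in bins of the distance from the summit to the nearest protein-coding TSS (x axis, in kb), for first introns, later introns and intergenic sequence. Points are offset sideways within a bin, and bars are 95% Poisson intervals. The density in first introns was 6.07 per Mb at 1 to 2 kb and between 3.40 and 4.65 beyond, and it lay above that of later introns and of intergenic sequence in all bins.

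The decline went over the first few introns, in densities pooled over all distances. Bins of distance were not used for single intron numbers, so distance from the TSS is not held here. Intron 2 had 221 TRBS, or 4.01 per Mb (3.50 to 4.58), and its interval overlapped with that of intron 1. Intron 3 had 2.90 per Mb (2.33 to 3.56), intron 4 had 2.40 (1.79 to 3.15) and all introns from the fifth on had 2.73 (2.40 to 3.09). Introns 3, 4 and later ones did not differ beyond these intervals. Neither the median fragment count, at 15 to 16, nor the DR4 share followed the density, since the share was 33.9% in intron 1, 32.6% in intron 2, 33.3% in intron 3, 32.7% in intron 4 and 27.7% (22.5 to 33.6%) in introns from the fifth on. Another 64 sites were inside a gene record but in no intron of a basic protein-coding transcript that spanned the summit, with 4.10 per Mb (3.16 to 5.24). The introns themselves differed in length, with a median of 20719 bp for the first introns that held a site and 4865 bp for the later ones.

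**Figure D3:**
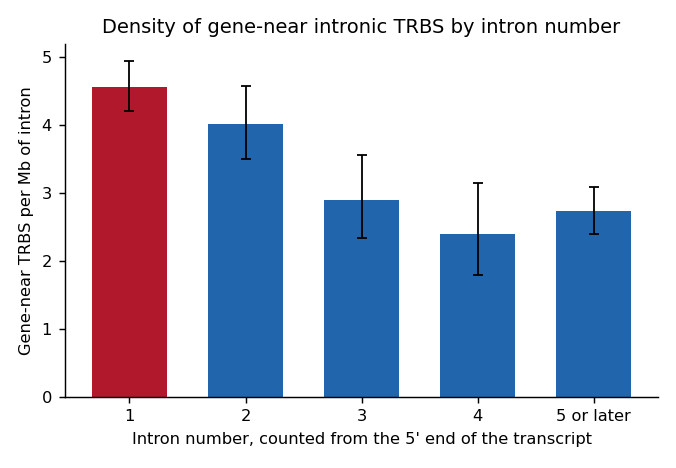
Gene-near intronic TRBS per Mb of intron sequence (y axis, from 0) by the number of the intron in its transcript (x axis). Bars are densities and lines are 95% Poisson intervals. The bars fall from 4.57 in intron 1 and 4.01 in intron 2 to between 2.40 and 2.90 further on.

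Introns were denser in TRBS than intergenic sequence at the same distance from a TSS. The density was 3.69 per Mb in introns and 2.52 per Mb (2.36 to 2.70) in 334.95 Mb of gene-near intergenic sequence, a ratio of 1.46 (1.34 to 1.60, adjusted p = 1.2e-16, exact test). The ratio was 1.38 at 1 to 5 kb, 1.63 at 5 to 10 kb, 1.53 at 10 to 20 kb and 1.30 at 20 to 30 kb, and all 4 passed the exact test (highest adjusted p = 0.0112). Introns therefore held more but, as given above, less often strong TRBS than intergenic sequence did.

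The nearest TSS was that of the host gene for 1027 of the 1275 sites (80.5%, 78.3 to 82.6%) and that of another gene for 248. For comparison, the host was the nearest gene for 77.7% of the available intronic sequence. Per Mb, sites with the own gene nearest were at 3.82 (3.59 to 4.06) and those with another gene nearest at 3.22 (2.83 to 3.65), a ratio of 1.19 (1.03 to 1.37, adjusted p = 0.0243, exact test). In most subsets, which hold fewer sites, the interval included 1. The ratio was 1.15 (0.821 to 1.64) at 1 to 5 kb, 1.19 (0.863 to 1.67) at 5 to 10 kb and 0.991 (0.792 to 1.25) at 10 to 20 kb, and only the 1.39 (1.04 to 1.90) at 20 to 30 kb passed the exact test, with an adjusted p of 0.0348. Within first introns it was 1.35 (0.974 to 1.93, adjusted p = 0.104, exact test), and within later introns 0.962 (0.809 to 1.15, adjusted p = 0.699, exact test). With only TRBS of a score of at least 60, the ratio of 1.11 did not pass the exact test (p = 0.195). With only the strongest site of each host gene it was 1.26 (p = 0.00516, exact test), and with summits closer than 1 kb merged it was 1.21 (p = 0.00815, exact test).

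The lead of first introns was 1.54 (1.35 to 1.75, adjusted p = 1.4e-10, exact test) where the own gene was nearest and 1.09 (0.750 to 1.55, adjusted p = 0.653, exact test) where another gene was. The latter rests on 38 sites in first introns, and the difference between the ratios was not tested. The 248 sites with another gene nearest were at a median of 13537 bp from that gene's TSS and 32074 bp from the TSS of the host, and 130 of them were over 30 kb from the latter. They lay upstream of the nearer TSS in 172 cases (69.4%), and host and nearer gene were on the same strand in 116 (46.8%).

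The strongest of the sites with another gene nearest show what such a position looks like. The 120 fragments in intron 1 of Bcl6 were 9256 bp from the TSS of Bcl6 and 8886 bp from that of the predicted gene Gm37419. The next, with 92 fragments (74.2 to 113), was in intron 2 of Wbp1l, 26881 bp from the TSS of Cyp17a1, a steroid-synthesis enzyme. The site with 91 fragments (73.3 to 112) was inside Zfp652 but 2811 bp upstream of Phospho1, a phosphatase of phosphocholine and phosphoethanolamine, while the TSS of Zfp652 was 109015 bp away. The 81 fragments (64.3 to 101) inside Gm20388 were 4597 bp upstream of Sult5a1, a sulfotransferase, and the start of the host's gene record was 3252071 bp away. The 74 fragments in intron 32 of Supt6 were 17395 bp from the TSS of Proca1 and 35200 bp from that of Supt6. Thus the host and the nearest gene differed, and the distances to both were unlike, except in Bcl6. Of the 248 sites, 11 had a host and 15 a nearest gene with only a predicted-gene symbol (Gm and a number).

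The DR4 was found in 416 of the 1275 gene-near intronic TRBS (32.6%, 30.1 to 35.3%), when at most 2 mismatches over the 12 hexamer bases were allowed anywhere in the peak and on both strands. Flanking windows held it in 150 of 2459 cases (6.10%, 5.22 to 7.12%), which gave a ratio of 5.35 between the shares (4.49 to 6.37). Of the 416 elements, 12 were perfect, 83 had 1 mismatch and 321 had 2. Their median offset from the summit was 22.5 bp, and 297 of them (71.4%, 66.9 to 75.5%) were within 50 bp of it. The DR4 was on the coding strand of the host gene in 190 of 416 (45.7%, 40.9 to 50.5%), which did not pass an exact binomial test against equal shares (two-sided p = 0.0860). With peak midpoints the share was 45.0% (p = 0.0448) and with all transcript starts 44.7% (p = 0.0266), and both passed the exact binomial test.

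**Figure D4:**
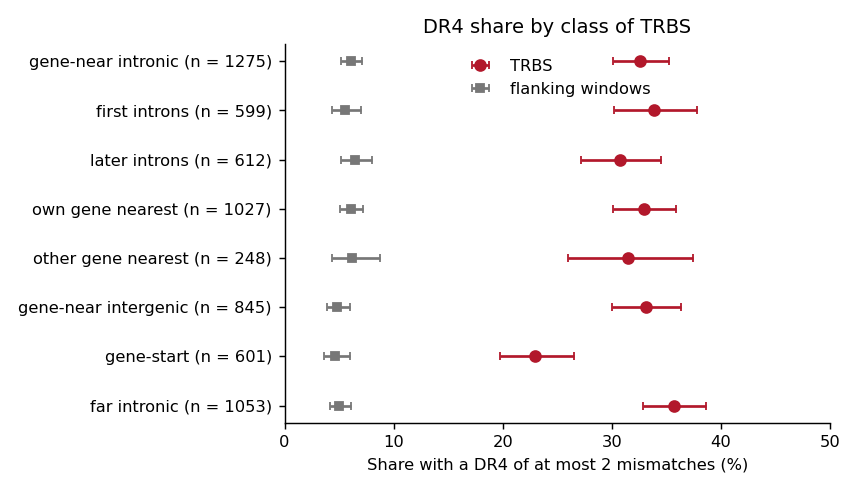
Share of TRBS, and of their flanking windows, that held a DR4 with at most 2 mismatches (x axis, in %) by class of TRBS (y axis, with the number of TRBS). Points are shares and bars are 95% Wilson intervals. All classes of TRBS lie between 23.0 and 35.7%, with gene-start TRBS lowest, and all flanks lie between 4.66 and 6.48%.

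Gene-near intronic TRBS held a DR4 more often than TRBS within 1 kb of a TSS, of which 23.0% did (138 of 601). This difference of 9.67 points (5.33 to 13.8) passed Fisher's exact test (adjusted p = 0.000142 over 8 share differences). With at most 1 mismatch it was 2.29 points and did not pass (adjusted p = 0.199, Fisher's exact test). The gene-start sites had a mean GC content of 61.9%, against 52.6% in the intronic ones, and the part of base composition in the difference was not tested. No difference past the threshold was seen against the gene-near intergenic TRBS, at -0.51 points (-4.62 to 3.55, adjusted p = 0.813, Fisher's exact test), or against intronic TRBS over 30 kb from a TSS, at -3.08 points (-6.95 to 0.78, adjusted p = 0.331, Fisher's exact test). With scores of at least 100 the latter was -6.01 points and passed (adjusted p = 0.0495, Fisher's exact test). No difference past the threshold was seen between first introns with 33.9% and later introns with 30.7% (3.17 points, -2.09 to 8.42, adjusted p = 0.390, Fisher's exact test). The share was 32.9% with the own gene nearest and 31.5% with another gene nearest (1.46 points, -5.19 to 7.66, adjusted p = 0.807, Fisher's exact test). These intervals still allow differences of several points in either direction.

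Other letters were counted in the 201 bases around the summit, on both strands, as descriptions and not as bound sites. The single hexamer AGGTCA, which also counts inside the DR4, was in 46.0% of the sites and 14.0% of flanking windows of the same length. The DR1, the same hexamer repeated with a 1-bp spacer as in elements of PPAR and RXR, was in 9.80% and 3.29% when 2 mismatches were allowed. The C/EBP palindrome TTGCGCAA with at most 1 mismatch was in 6.12% and 2.93%. The E-box CACGTG was in 5.73% and 2.72%, the EBF element TCCCNNGGGA in 2.90% and 0.773%, and the AP-1 element TGANTCA in 7.06% and 5.37%. The 15-letter NF1 palindrome with at most 1 mismatch was found in only 2 of the 1275. The intervals of sites and flanks did not overlap for the hexamer, the DR1, C/EBP, EBF and the E-box, whereas those of AP-1 did. The sites were not tested against the flanks. No share differed between intronic and intergenic sites or between first and later introns after adjustment over 16 Fisher's exact tests. The lowest p-values were for C/EBP, with 7.85% in first and 4.25% in later introns (p = 0.0108, adjusted p = 0.135), and for the E-box, with 5.73% in intronic and 3.43% in intergenic sites (p = 0.0169, adjusted p = 0.135), both in Fisher's exact test.

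The 1275 sites were spread over 985 host genes, which is 5.21% of the 18917 autosomal protein-coding genes with any gene-near intronic sequence. A single site was in 783 of the hosts and more than 1 in 202 (20.5%, 18.1 to 23.1%), and these 202 held 492 sites. Exactly 2 sites were in 139 hosts, 3 in 43, 4 in 16, 5 in 3 and 6 in 1, the monoglyceride lipase gene Mgll. Of the sites in Mgll, those of 13, 7 and 7 fragments had scores of 47, 31 and 33, under the study's limit of 60. Their folds were 4.95, 4.78 and 4.97. In 122 introns there was more than 1 site. Host genes had more of the sequence that counts, with a median of 28.3 kb of gene-near intronic sequence against 15.9 kb over all genes with any, hosts included. Sites of 1 gene are not independent, and 56 sites were inside more than 1 gene.

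The genes with the most sites of a fold of at least 5, with ties broken by the summed fragments, were Por, Acss1, Klf13, Tnip1 and Cradd. Por encodes the reductase that feeds electrons to microsomal cytochromes P450, and its 5 sites had 14, 9, 40, 33 and 25 fragments in order of distance from its TSS. Those of 14, 9 and 40 fragments were inside the gene record of Por but in no intron of a basic protein-coding transcript that spanned the summit. Acss1 encodes the mitochondrial acetyl-CoA synthetase, with 5 sites of 21, 10, 12, 13 and 53 fragments. The zinc-finger factor Klf13 has a single intron, and this held 4 sites of 76, 23, 52 and 18 fragments. In Tnip1, an inhibitor of NF-κB signalling, the 4 sites had 81, 27, 22 and 38 fragments, and in Cradd they had 14, 121, 19 and 8. The sites within 1 gene were thus unequal, the strongest exceeding the weakest with intervals that did not overlap in all 5 genes. The strongest site was the nearest to the TSS in Klf13 and Tnip1 only. A DR4 was in 10 of these 22 sites, but in Por, Klf13 and Tnip1 the strongest site had none with at most 2 mismatches. In Cradd, the perfect element was in the weakest site, with 8 fragments (3.45 to 15.8).

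**Figure D5:**
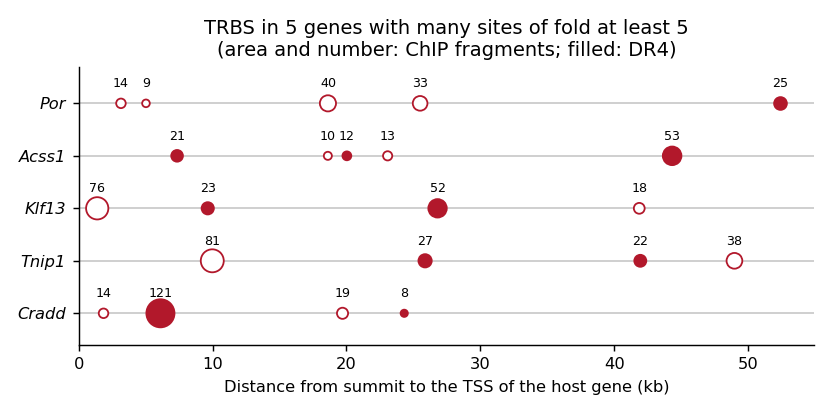
Position of each TRBS in the 5 host genes with the most sites of a fold of at least 5 (ties by summed fragments), as distance from its summit to the TSS of the host (x axis, in kb). The area of a circle and the number above it give the ChIP fragments, and filled circles mark a DR4 with at most 2 mismatches. The counts run from 8 to 121 fragments within Cradd alone, and sites lie as far as 52.4 kb from the host's TSS, where another gene is nearer. In Por, the sites of 14, 9 and 40 fragments lie in no intron of a basic protein-coding transcript.

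At the sites farthest from the TSS of Klf13, Tnip1, Acss1 and Por, another gene was nearer. The elements in 5 of these multi-site genes are shown to make visible how the DR4 varied within and between them, with the hexamers in capitals on the strand of the direct repeat. The first is the perfect element of the weakest site of Cradd, and the others had 1 or 2 mismatches.
Cradd, chr10:95299807-95299842, plus strand: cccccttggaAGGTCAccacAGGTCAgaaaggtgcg
Klf13, chr7:63912094-63912129, plus strand: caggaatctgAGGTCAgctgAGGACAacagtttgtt
Klf13, chr7:63929268-63929303, plus strand: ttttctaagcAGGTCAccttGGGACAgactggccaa
Acss1, chr2:150624150-150624185, plus strand: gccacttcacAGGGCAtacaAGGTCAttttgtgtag
Acss1, chr2:150661171-150661206, plus strand: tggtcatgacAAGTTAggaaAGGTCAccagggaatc
Acss1, chr2:150648459-150648494, plus strand: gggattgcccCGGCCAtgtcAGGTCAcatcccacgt
Tnip1, chr11:54937050-54937085, plus strand: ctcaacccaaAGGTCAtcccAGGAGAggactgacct
Tnip1, chr11:54920994-54921029, minus strand: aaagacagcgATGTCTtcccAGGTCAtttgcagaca
Por, chr5:135722428-135722463, minus strand: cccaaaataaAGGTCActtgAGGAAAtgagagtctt

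T3 is known to act on genes of adipocyte metabolism, and these were counted in lists. Of 107 autosomal genes with gene-near intronic sequence in 5 lists (transcription regulators of adipocytes, thermogenesis and cAMP signalling, lipid synthesis, lipid uptake, storage and oxidation, and glucose and insulin signalling), 41 hosted a site (38.3%, beside 5.21% of all genes). They held 63 sites, or 25.8 per Mb (19.9 to 33.1) of their own gene-near intronic sequence, beside 3.69 per Mb over all genes. Their median fragment count was 16, the same as over all 1275 sites. A DR4 was in 12 of the 63 (19.0%, 11.2 to 30.4%), beside 32.6% of all. Of the 63, 37 were in first introns (58.7%), beside 47.0% of all, and 7 had another gene nearest. The lists were chosen with results of these data known, so these counts are a description and were not tested.

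In lipid uptake, storage and oxidation, 10 of 28 genes hosted 19 sites, and 18 hosted none. Pnpla2, the first lipase of triglyceride breakdown, had 46 fragments (33.7 to 61.4) in intron 1, 1096 bp from its TSS, with a DR4 of 1 mismatch. Lipe, the hormone-sensitive lipase that acts after it, had 3 sites of 30, 27 and 21 fragments in intron 1. Mgll, the last lipase of the chain, had 6 sites of 26, 13, 24, 7, 7 and 32 fragments, with the strongest in intron 6, nearer to the TSS of Abtb1 than to its own. Its sites of 13, 7 and 7 fragments had scores under the study's limit of 60. The sites of these lipases thus ranged from 7 to 46 fragments, on both sides of the median of 16. Hadha and Hadhb, the subunits of the mitochondrial trifunctional protein of fatty acid oxidation, had up to 17 and 28 fragments. Angptl4, an inhibitor of lipoprotein lipase, had 23 (14.6 to 34.5) in intron 3, and the lipid droplet genes Plin1 and Plin4 had 8 and 10.

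In lipid synthesis, 9 of 21 genes hosted 11 sites. Gpat4 and Gpam, acyltransferases of the first step of glycerolipid synthesis, had 33 (22.7 to 46.3) and 27 (17.8 to 39.3) fragments. Acly, which makes cytosolic acetyl-CoA, had 23 in intron 11, and Acaca, the acetyl-CoA carboxylase of fatty acid synthesis, also had 23, 50016 bp from its TSS and nearer to Gm11437. In some cases the list gene was not the host. Fasn, the fatty acid synthase, hosted no site, but 45 fragments (32.8 to 60.2) and a DR4 were 6281 bp upstream of its TSS in the last intron of Ccdc57. Agpat2, a later acyltransferase, had sites of 42 and 65 fragments upstream of its TSS, inside the predicted gene Gm20532.

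In glucose and insulin signalling, 9 of 20 genes hosted 15 sites. Both Akt kinases of the insulin pathway had a strong one, Akt1 with 101 fragments (82.3 to 123) in intron 2 and Akt2 with 97 (78.7 to 118) in intron 1, and these intervals overlapped. Akt1 had a DR4 of 2 mismatches 1.5 bp from the summit and Akt2 had none. The insulin receptor gene Insr had 42 fragments (30.3 to 56.8) at 1140 bp from its TSS. Pfkfb3, which sets the level of a glycolysis activator, had 65 (50.2 to 82.8), Gpd2, the mitochondrial glycerol phosphate dehydrogenase, had 52 (38.8 to 68.2), and Hk2, a hexokinase, had 4 sites of 11 to 23 fragments. A DR4 was in 6 of the 15 sites, beside 2 of 19 in lipid uptake, storage and oxidation, 2 of 11 in lipid synthesis, and 1 of 9 in both the regulators and thermogenesis, and beside 32.6% of all 1275 sites.

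Among adipocyte transcription regulators, 8 of 21 genes hosted 9 sites. Mlxipl, the carbohydrate-response factor ChREBP, had 52 fragments (38.8 to 68.2) in intron 1 and 25 in intron 2, neither with a DR4. Nr1d1, the clock repressor REV-ERBα, had 29 (19.4 to 41.6), Ebf3 had 26, and the coactivators Ppargc1a and Ppargc1b had 17 and 18. Pparg, the master regulator of adipocyte differentiation, had 10 (4.80 to 18.4), as had Ebf2, a determinant of brown fat identity. Cebpb has no intron, but sites of 66 (51.0 to 84.0) and 25 fragments were 2152 and 1001 bp upstream of its TSS, within the gene record of Tmem189. The interval of the stronger site of Mlxipl overlapped with that of Nr1d1, and those of Pparg and Ebf2 overlapped with those of the coactivators.

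In thermogenesis and cAMP signalling, 5 of 17 genes hosted 9 sites. Adcy3, an adenylyl cyclase, had 32 (21.9 to 45.2) and 9 fragments in intron 2, the former with a DR4. Prkaca and Prkar2b, subunits of protein kinase A, had 16 each, and a site of 28 upstream of Prkaca was in an intron of Asf1b. Kcnk3, a potassium channel of brown fat, had 4 sites of 8 to 12 fragments in its only intron, and Cidea, a lipid droplet protein of brown adipocytes, had 13 (6.92 to 22.2). Apart from the stronger site of Adcy3, those hosted by genes of this list were thus at or below the median of 16.

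The genes of TH signalling described here had weak sites, all in first introns. Thra, which encodes the receptor that was precipitated, had 3 sites of 10, 11 and 10 fragments within intron 1, at 9990 to 12057 bp from its TSS and none with a DR4. Rxra, the partner of TR, had 11 (5.49 to 19.7), and Dio1, a deiodinase that converts thyroxine to T3, had 7 (2.81 to 14.4). The intervals of these counts overlapped with each other, so no order can be read from them.

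Of 8 genes taken from the text of the study, 3 hosted a site by this rule, beside 5.21% of all genes. These were Thra, Desi1, a protein of SUMO removal, with 25 fragments (16.2 to 36.9) and one of the perfect elements shown above, and Trp53inp2, a regulator of autophagy, with 68 (52.8 to 86.2) at 1172 bp from its TSS and a DR4 of 2 mismatches. The study prints the symbol Trp53ind, which was read here as Trp53inp2. All 5 sites were in first introns, beside 47.0% of all 1275, but 3 of them were in the same intron of Thra and are not independent. The study names several of these genes for their response to T3, so their count is no independent evidence.

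Counted by the nearest TSS in place of the host, 1001 of 20807 autosomal protein-coding genes (4.81%) had at least 1 of the sites. Among markers of the labelled cell type, 3 of 10 brown adipocyte markers (Cidea, Plin1 and Pparg) hosted a site, beside 5.21% of all genes, with 13, 8 and 10 fragments. The score was 74 in Cidea, but 31 in Plin1 and 39 in Pparg, under the study's limit of 60. The site in Plin1 was nearer to the TSS of Kif7. These 3 genes are also in the lists chosen with results known, so their count is no independent check of the cell type. Ucp1, Adipoq, Fabp4, Cd36, Lpl, Cox7a1 and Ppara hosted none by this rule. Of 38 autosomal markers with gene-near intronic sequence of skeletal muscle, endothelium, macrophages, neurons and Schwann cells, 0 hosted a site. With 0 sites in 0.839 Mb, the upper end of the 95% Poisson interval was 4.40 per Mb and the limit from 3 counts was 3.58 per Mb. These lie on either side of the 3.69 per Mb over all genes, so this little sequence cannot decide whether these markers had a lower density.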

How the data were processed

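ChIP-seq of GS-tagged TRα1 was analysed from 1 ChIP and 1 input library of mouse brown adipose tissue, grouped by the labels. Per the submitters' processing notes, Bowtie2 2.3.2.2 and MACS2 2.1.1.20160309.6 were used, on GRCm38 (mm10). The deposited list gives for each peak the authors' MACS score (10 times the −log10 q, rounded down), the authors' fold of ChIP pileup over input background at the summit (pseudocount 1), the deposited p-value and q-value as −log10, and the offset of the summit from the start. The study's methods removed scores under 60, but 897 of the 5107 deposited peaks were below that, and all were kept.

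The fold and the p-value fixed a whole number of ChIP fragments at the summit, within 0.0005 of the deposited −log10 p, for 5090 of the 5107 peaks. The solution was unique in 5052 peaks, and elsewhere the closest was taken. Read totals were not used here, so these counts are the depth behind each site. Fragments carry no molecular identifiers, so Poisson intervals cover counting error only. Genes came from the basic GENCODE vM21 annotation of GRCm38, with 1 TSS per gene at the 5′ end of the gene record. Intron numbers came from the APPRIS principal transcript that spanned the summit (on ties, the longest). Sequences and soft-masked repeats came from RefSeq GRCm38.p6. Columns of other samples numbered 0.

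Rates were compared per Mb with exact conditional tests, shares with Fisher's exact tests (two-sided), both with Benjamini-Hochberg adjustment and a threshold of 0.05, in Python 3.11.15 with scipy 1.17.1. The recovery of fragments, the DR4 search and the tests were tested on simulated data with known answers. Genes were named by rule: the 8 strongest sites, the 5 hosts with the most sites of a fold of at least 5, up to 10 perfect DR4 elements, the 5 strongest sites with another gene nearest, up to 4 genes per list by fragments, all genes the study names, and the sites next to the limits. Other list genes in the text were chosen after their values were seen. The members and lists were chosen with earlier results of these data known. Alternatives were a score of at least 60 or 100, the peak midpoint, no backgrounds over 100 fragments, merging within 1 kb, all transcript starts, a 10 kb limit, the first intron of any transcript, and DR4 searches with 1 or 3 mismatches or within 100 bp of the summit. Part of the results for the list of TH signalling is not reported here.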

Additional observations from a re-analysis of the deposited data

How the results depend on the processing

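Of 144 recomputed values, 121 kept their direction and their side of the threshold (for values without a test, they moved by less than their interval or, for counts, less than 1.5 times). The first-intron rate ratio did so in all alternatives, between 1.42 and 1.65. The own-gene rate ratio did not: it was 1.11 with scores of at least 60, 1.12 with scores of at least 100, 1.10 with all transcript starts and 1.19 at up to 10 kb, and none of these passed the exact test. The number of sites was 819 with scores of at least 100 and 591 at up to 10 kb. Host genes with more than 1 site then numbered 117 and 51, and the DR4 share was 35.5% and 35.4%. The DR4 share was 7.45% with at most 1 mismatch, 74.0% with at most 3, and 28.1% within 100 bp of the summit, so its level is set by the search.

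The DR4 difference from gene-start sites was 2.29 points with at most 1 mismatch and did not pass Fisher's exact test, whereas the difference from far intronic sites was -6.01 points with scores of at least 100 and passed it narrowly (adjusted p = 0.0495). The coding-strand share was 45.0% with peak midpoints and 44.7% with all transcript starts, and both passed the exact binomial test (p = 0.0448 and 0.0266). Differences that did not pass the test changed sign. Own gene minus neighbouring gene was -0.61 points with scores of at least 60 and -2.76 with at most 1 mismatch. Intronic minus intergenic was 0.0258 points with sites merged, 2.39 at up to 10 kb and 0.62 within 100 bp of the summit. The strong share, first minus later introns, was -1.55 points with scores of at least 100. The causes were not tested. The alternatives that left out soft-masked repeats or kept 1 site per host gene were chosen after seeing the data. No paired analysis was possible because there was only 1 ChIP library.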

Other observations

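The density of gene-near intronic TRBS differed between chromosomes, from 2.04 per Mb (1.44 to 2.81, 37 sites) on chromosome 3 and 2.07 per Mb (1.37 to 2.99, 28 sites) on chromosome 13 to 5.21 per Mb (4.34 to 6.19, 128 sites) on chromosome 11. The intervals of chromosomes 3 and 11 did not overlap.

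Soft-masked repeats took up over 50% of the 201 bases around the summit in 46 of the 1275 sites, and in 1 of the 12 with a perfect DR4, that of Kif16b with 57.2%. In 145 sites (11.4%) the peak reached into an exon although the summit was in none. A predicted-gene symbol was the only name of the host in 24 sites.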
